A study of Mus musculus with 24 samples.

Results

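BMS961, an agonist labelled as specific for retinoic acid receptor γ (RARγ), was compared with BMS641, an agonist labelled as specific for RARβ, in mouse P19 cells. P19 is an embryonal carcinoma line, and retinoids can start its differentiation. The members were the arrays whose titles name either agent, 10 of the 24 arrays of the series, and the 19938 named genes on them. Both agents were used at a final concentration of 0.1 µM, and each had 1 array at 2, 6, 24, 48 and 72 h, so that 1 pair of compounds could be compared at 5 matched times. The vehicle control was ethanol (EtOH), with 4 arrays whose labels name no time. ATRA (all-trans retinoic acid, 1 µM) and the RARα agonist BMS753 (1 µM), each at the same 5 times, gave the other 10 arrays. These arrays were used to choose a list of genes, for reference values, and in steps that took all 24 arrays. All cells grew as a monolayer on gelatine-coated plates, in medium with calf serum of which a part was delipidated. Values are log2 intensities per gene on Affymetrix Mouse Gene 1.0 ST arrays, so a difference of 1 is a 2-fold difference in signal. The labels do not say whether the arrays of an agent came from separate cultures, so the p-values rest on how much these arrays vary, and that variation may be technical in part.

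Retinoic acid receptors are nuclear receptors that bind DNA as heterodimers with retinoid X receptors (RXRs), at elements made of a short repeated motif, and activate transcription when an agonist is bound. RARα, RARβ and RARγ are encoded by Rara, Rarb and Rarg, and Rarb is itself a classic target of the receptors. Other well-known targets encode enzymes that remove retinoic acid or its precursor, such as Cyp26a1 and Dhrs3, and homeobox transcription factors, such as Meis2 and the Hox genes at the 3′ end of their clusters.

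The carcinoma state could be read from its transcription factors. Over the 10 arrays of both agents, the log2 level of Pou5f1 lay between 12.78 and 12.94 and that of Sox2 between 11.40 and 11.72, against a median of 7.14 over all genes. Array medians of the 14 arrays of BMS961, BMS641 and EtOH lay between 6.502 and 6.564, and precision is limited by how few arrays there are. Across genes, the time-matched difference between the agents had a standard deviation (SD) of 0.101 to 0.113 on the log2 scale, within the 0.0941 to 0.143 found between pairs of EtOH arrays.

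Few genes passed between the agents. In the mean of the 5 time-matched differences, 19 genes passed (0.0953%), of which 17 were higher with BMS961 and 2 were lower (limma, Benjamini-Hochberg adjusted p under 0.05 over 19938 genes), 0.0853% and 0.01% of the genes tested. An unadjusted p under 0.05 in limma was found in 1222 of the 19938 genes. A gene with no difference is expected to pass that threshold at a rate of 0.05, here and in later counts of this kind. The largest differences were those of Rarb and Cyp26a1, which were the only genes with a mean difference of at least 1.5-fold when that size was added to the test. Of the 17 genes higher with BMS961, 16 were higher at all 5 times, against 4.39% of all genes. The exception was Atp11b, which differed by -0.01 on the log2 scale at 2 h. Both lower genes were lower at all 5 times, against 3.71%. The call rests on these same 5 differences. Shared signs, and groups that do not overlap, are therefore favoured by the call and are no separate support. In 6 of the 19 genes (Rarb, Dhrs3, Abl1, Dock6, H1f2 and the 5S ribosomal RNA gene n-R5s136) the 5 arrays of one agent did not overlap the 5 of the other, as in 0.712% of all genes (0.426% with BMS961 above and 0.286% with it below). For 99.975% of the genes the 95% interval of the mean difference lay within 1.5-fold either way, with a median half-width of 0.0954 on the log2 scale. The count of 19 depended on the arrays used: it was 53 without the 2 h arrays, 12 without 6 h, 11 without 24 h, 9 without 48 h, 10 without 72 h and 29 without EtOH replicate 2. With all 24 arrays in 1 fit, where the courses of ATRA and BMS753 enter the spread, only Rarb passed.

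**Figure D1:**
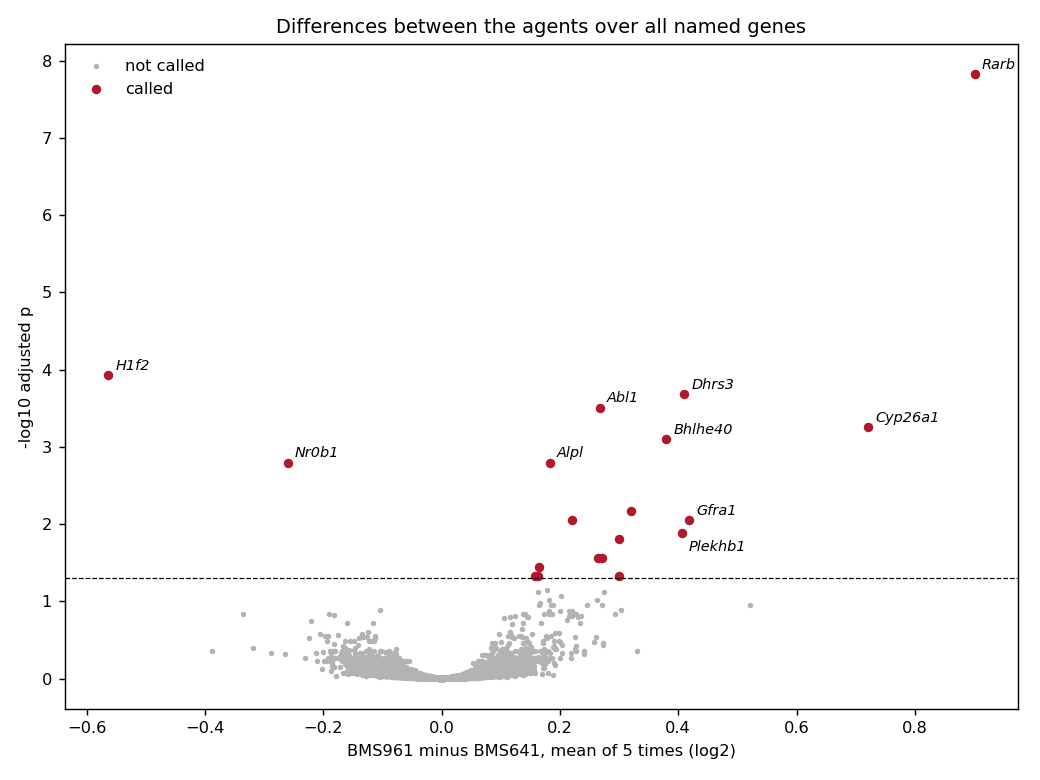
Each point is 1 of 19938 genes; the horizontal axis is the mean of the 5 time-matched differences, BMS961 minus BMS641 (log2), and the vertical axis is -log10 of the adjusted p from limma, with the dashed line at 0.05. The 19 called genes are red: 17 lie to the right, led by Rarb at 0.90 and Cyp26a1 at 0.72, and 2 to the left, Nr0b1 and H1f2.

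Among the 6 receptor genes, Rarb was higher with BMS961 and none of the others passed. Under BMS641 the log2 level of Rarb was 7.05 at 2 h, 7.30 at 6 h, 7.68 at 24 h, 7.55 at 48 h and 7.50 at 72 h. Under BMS961 it was 7.72, 8.33, 8.58, 8.56 and 8.39 at the same times, and the 4 EtOH arrays lay between 6.89 and 7.06. All 5 BMS961 arrays were above all 5 BMS641 arrays, and both agents had their highest value at 24 h. The mean difference was 0.90 ± 0.053 (SE, n = 5 times; 95% interval 0.79 to 1.01; limma adjusted p = 1.5e-08), or 1.87-fold. Against EtOH, Rarb rose by 1.35 with BMS961 (limma adjusted p = 2.24e-11) and by 0.45 with BMS641 (limma adjusted p = 0.000147). The lowest level under ATRA was 10.08 and under BMS753 9.53, both at 10 times the dose and both above every array of either 0.1 µM agent.

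The gene of the receptor that BMS961 is named for, Rarg, gave log2 levels of 9.14 to 9.21 with BMS961 and 9.03 to 9.29 with BMS641, beside 9.11 to 9.18 with EtOH. Its mean difference was 0.02 (95% interval -0.05 to 0.09; limma adjusted p = 0.973). Rara differed by 0.10 (95% interval 0.03 to 0.17) and did not pass over all genes (limma adjusted p = 0.549). Rxrg, an RXR gene, was above EtOH with each agent, by 0.35 with BMS961 (limma adjusted p = 0.00106) and by 0.31 with BMS641 (limma adjusted p = 0.00573). The agents differed in it by 0.04 (95% interval -0.07 to 0.15).

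Of the 17 measured genes for retinoid enzymes and carriers, Cyp26a1 and Dhrs3 were higher with BMS961 and 0 were lower. Cyp26a1 encodes the cytochrome P450 that clears retinoic acid. Its log2 levels under BMS641 were 6.12, 6.26, 6.61, 6.64 and 6.87 at 2, 6, 24, 48 and 72 h, and under BMS961 they were 6.48, 6.79, 7.38, 7.69 and 7.76. The EtOH arrays lay between 6.05 and 6.50, so BMS961 left that range from 6 h on and BMS641 from 24 h on. The agents overlapped across times but were ordered the same way at each time, with the widest gap, 1.05, at 48 h. The mean difference was 0.72 ± 0.088 (SE, n = 5 times; limma adjusted p = 0.000562), or 1.65-fold. BMS961 raised Cyp26a1 over EtOH by 0.93 (limma adjusted p = 5.08e-06), whereas the value of 0.21 with BMS641 did not pass (limma adjusted p = 0.45). When the arrays were not matched by time, the difference in Cyp26a1 did not pass.

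Dhrs3 encodes a retinaldehyde reductase that turns the precursor of retinoic acid back to retinol. Its log2 levels were 9.18, 9.22, 9.22, 9.11 and 9.07 with BMS641 and 9.40, 9.51, 9.60, 9.68 and 9.65 with BMS961, against 8.71 to 8.81 with EtOH. The groups did not overlap, and the gap went from 0.23 at 2 h to 0.58 at 72 h. The mean difference was 0.41 ± 0.046 (SE, n = 5 times; limma adjusted p = 0.000208), and both agents were above EtOH, by 0.82 and 0.41. The other enzymes and carriers gave small values: Cyp26b1, a second clearing enzyme, differed by 0.03 (95% interval -0.09 to 0.14), Stra6, the retinol transporter, by 0.03 (95% interval -0.10 to 0.15), and Crabp2, a retinoic acid binding protein, by -0.06 (95% interval -0.17 to 0.05).

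The sequences just upstream of Rarb and Cyp26a1, the genes with the largest mean differences, are shown because each holds a DR5 element, 2 receptor motifs in the same direction with 5 bases between. The 100 bases before the RefSeq start of each gene were read 5′ to 3′ in the direction of transcription, with the element in capitals. For Rarb this is chr14:16575477-16575576 on the minus strand and for Cyp26a1 chr19:37697708-37697807 on the plus strand of GRCm38.p6, and both windows lie upstream of the first exon.
Rarb: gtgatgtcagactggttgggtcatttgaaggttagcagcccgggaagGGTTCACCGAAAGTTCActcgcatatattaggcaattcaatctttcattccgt
Cyp26a1: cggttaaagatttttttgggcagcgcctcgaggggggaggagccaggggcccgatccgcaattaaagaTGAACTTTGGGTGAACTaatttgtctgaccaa
The element lay at bases -53 to -37 from the start of Rarb, in the direction of transcription, and at -32 to -16 from that of Cyp26a1, on the opposite strand. Both strands of 32851 promoter windows of 300 bases were searched, and a DR5 element of this kind was in 0.0974% of them. With the DR1 and DR2 spacings added, 0.588% held a match. Of the 35 genes called in any comparison of the agents, 26 had a window, and Rarb and Cyp26a1 were those with a match. A match is a description of letters and was not tested as a site.

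**Figure D2:**
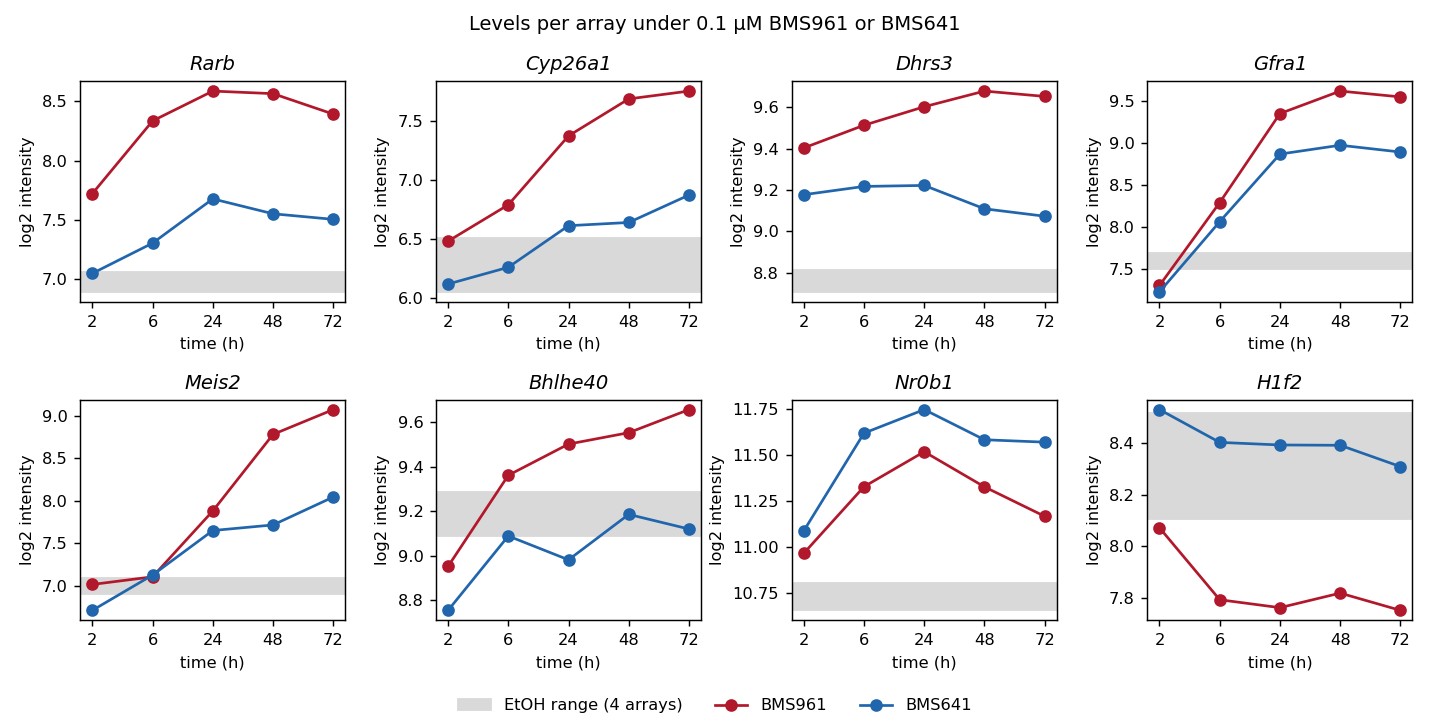
Log2 intensity per array (vertical axes, which differ in range between panels) against time in h (horizontal axes, not to scale) for 8 genes; points are single arrays and the grey band is the range of the 4 EtOH arrays. Rarb, Dhrs3 and H1f2 do not overlap between agents, Cyp26a1, Gfra1, Meis2 and Bhlhe40 are higher with BMS961 at 24, 48 and 72 h, and Nr0b1 is above EtOH with both agents and lower with BMS961.

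Among 29 measured genes listed as other retinoid-responsive genes, Gfra1 and Bhlhe40 were higher with BMS961 and 0 were lower. The median mean difference of the list was 0.039, beside 0.000696 over all genes, and 6 of the 29 (20.7%, against 4.39% of all genes) were higher at all 5 times. Gfra1 encodes a co-receptor for the growth factor GDNF. Its log2 levels were 7.22, 8.06, 8.87, 8.97 and 8.89 with BMS641 and 7.30, 8.29, 9.35, 9.62 and 9.55 with BMS961. At 2 h both agents lay below the EtOH range of 7.50 to 7.68, and from 6 h on both lay above it. The mean difference was 0.42 ± 0.066 (SE, n = 5 times; limma adjusted p = 0.00892), reaching 0.66 at 72 h. It lost its call in 7 of 20 alternatives, among them the fits without the 24 h, the 48 h or the 72 h arrays.

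Bhlhe40 and Bhlhe41 encode related transcriptional repressors of the circadian clock. Bhlhe40 gave 8.75, 9.09, 8.98, 9.19 and 9.12 with BMS641 and 8.95, 9.36, 9.50, 9.55 and 9.66 with BMS961, beside 9.09 to 9.29 with EtOH. BMS961 was above the EtOH range from 6 h on, while BMS641 stayed within or below it at every time. Bhlhe40 differed by 0.38 ± 0.048 (SE, n = 5 times; limma adjusted p = 0.000793) and Bhlhe41 by 0.32 ± 0.049 (limma adjusted p = 0.00673), and both were above EtOH with BMS961, by 0.21 and 0.24 (limma adjusted p = 0.0441 and 0.0155). With BMS641 they stood at -0.17 and -0.08 and did not pass. The late levels under the 1 µM agents ran otherwise: Bhlhe41 stood at -2.23 against EtOH with ATRA and at -1.35 with BMS753, given beside the lower dose with no comparison.

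Several other targets were above EtOH with both agents and did not pass between them. Greb1l, a regulator of kidney and ear development, was above EtOH by 1.04 with BMS961 and by 0.82 with BMS641, and the agents differed by 0.22 (95% interval 0.11 to 0.32; limma adjusted p = 0.154). Csn3, the κ-casein gene, was above EtOH by 0.68 and 0.45, with a difference of 0.23 (95% interval 0.11 to 0.35; limma adjusted p = 0.192). Gata6, an endoderm transcription factor, was above EtOH by 0.42 and 0.32, with a difference of 0.10 (95% interval -0.0025 to 0.20; limma adjusted p = 0.839). Gbx2, a hindbrain homeobox gene, and Skap2, which lies next to the Hoxa cluster, differed by 0.28 and 0.26 and were higher with BMS961 at all 5 times, with limma adjusted p-values of 0.0763 and 0.0968.

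Among homeobox genes, Meis2 was higher with BMS961 late. Meis2, of the TALE class of Hox cofactors, gave log2 levels of 6.71, 7.13, 7.65, 7.72 and 8.05 with BMS641 and 7.02, 7.11, 7.88, 8.78 and 9.07 with BMS961, beside 6.91 to 7.09 with EtOH. The agents were close at 6 h, where they differed by -0.02, and stood 1.06 apart at 48 h and 1.03 apart at 72 h. The difference over the late times (24, 48 and 72 h) was 0.77 ± 0.11 (SE, n = 3 times; 95% interval 0.54 to 1.01; limma adjusted p = 0.00485), and the mean of 5 times, 0.52, did not pass (limma adjusted p = 0.112). The late call was lost in 6 of 20 alternatives, with values between 0.63 and 1.05 over all of them. These were the fits without the 48 h or the 72 h arrays, robust moderation, no variance trend, no time term and all 24 arrays. The other 9 TALE genes did not pass, among them Meis1 with 0.19 late (95% interval 0.02 to 0.36) and Pbx2 with 0.17 late (95% interval 0.09 to 0.26).

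No Hox gene passed, of 14 measured in paralogue groups 1 to 5 and 23 in groups 6 to 13. In groups 1 to 5, 11 of 14 mean differences were above 0, where 50.6% of all genes were, and the late median was 0.0562. The lean was not seen at 72 h: 92.9% were above 0 at 24 h, 78.6% at 48 h and 42.9% at 72 h. Over all genes these shares were 46.3%, 52.1% and 52.2%. The median of groups 1 to 5 at 72 h was -0.00688. Hoxa2 was nearest to a call late: BMS641 gave 5.25, 5.52 and 5.46 and BMS961 5.54, 5.86 and 6.12 at 24, 48 and 72 h, with a late difference of 0.43 (95% interval 0.25 to 0.61; limma adjusted p = 0.0525). Hoxb2 followed with 0.35 (95% interval 0.20 to 0.51; limma adjusted p = 0.0864) and Hoxb1 with 0.22 (95% interval 0.07 to 0.37; limma adjusted p = 0.475). In groups 6 to 13, 13 of 23 mean differences were above 0, with a median of 0.0119. The highest single arrays of the 1 µM agents reached 9.22 for Hoxa2, 10.86 for Hoxb1 and 11.83 for Hoxb2.

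The genes that the 1 µM agents moved most gave a list that the arrays of BMS961 and BMS641 did not choose. With ATRA and BMS753 against EtOH, 39 genes rose at least 4-fold late with both agents and 9 fell at least 4-fold. Of the 39, 32 had a mean difference above 0 between BMS961 and BMS641 (82.1%, against 50.6% of all genes), and 10 were higher with BMS961 at all 5 times (25.6%, against 4.39%). Their median difference was 0.0337 at 2 h, -0.00273 at 6 h, 0.0139 at 24 h, 0.162 at 48 h and 0.228 at 72 h (log2), while that of all genes stayed between -0.00851 and 0.00857. Late, 5 of the 39 were called, Rarb, Cyp26a1, Meis2, Gfra1 and Mecom, where 0.11% of all genes were called higher, and Mecom lost its call in 13 of 20 alternatives. The other 34 had late values from -0.14 for Sema3c, an axon guidance ligand, to 0.43 for Hoxa2. Of the 9 genes that fell, which include Tdgf1, a Nodal co-receptor, and members of the Mir302 cluster of embryonic microRNAs, 1 had a mean difference above 0, and their late median was -0.0665, with 0 called.

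**Figure D3:**
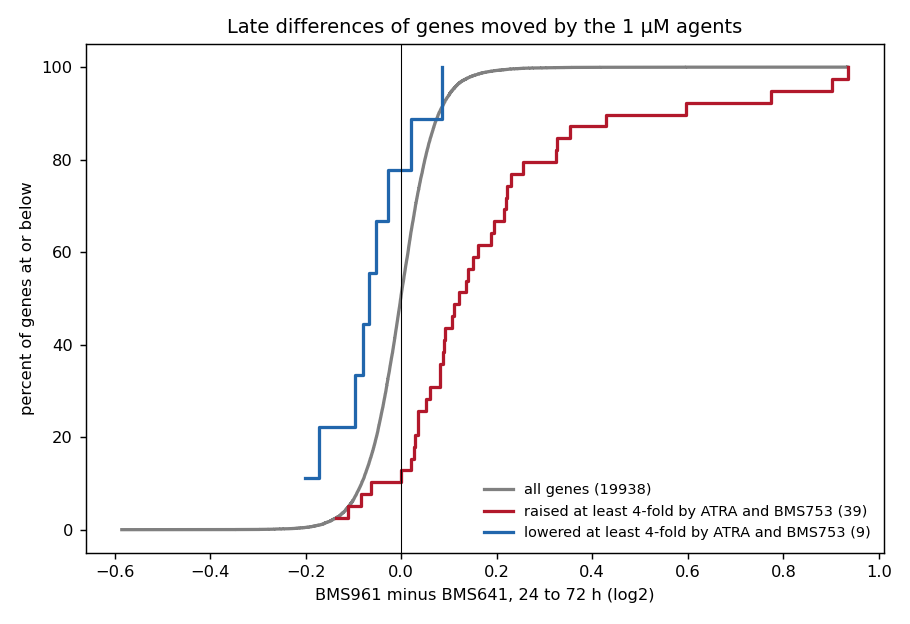
Cumulative curves of the late difference (24, 48 and 72 h), BMS961 minus BMS641, on the log2 scale; the vertical axis is the percent of genes at or below each value. The red curve of the 39 genes raised by ATRA and BMS753 has its median at 0.122, the grey curve of all genes at -0.000902, and the blue curve of the 9 lowered genes at -0.0665.

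The remaining genes that were higher with BMS961 have varied roles. Of all 17 genes, 5 rose at least 2-fold late with both ATRA and BMS753, as did 202 of all 19938 genes. Dusp4, a phosphatase that inactivates MAP kinases, gave 8.04, 8.09, 8.30, 8.36 and 8.34 with BMS641 and 8.23, 8.26, 8.44, 8.81 and 8.74 with BMS961. Its values overlapped across times and differed on average by 0.27 ± 0.048 (SE, n = 5 times; limma adjusted p = 0.0271). Abl1, a non-receptor tyrosine kinase, gave 10.18, 10.36, 10.28, 10.06 and 9.99 with BMS641 and 10.41, 10.60, 10.43, 10.40 and 10.36 with BMS961. Here the groups barely separated, the lowest BMS961 array lying just above the highest BMS641 array, and the mean difference was 0.27 ± 0.031 (SE, n = 5 times; limma adjusted p = 0.00031). Tet2, which oxidises methylated cytosine, differed by 0.26 (limma adjusted p = 0.0271) and Gadd45b, a stress-induced regulator of growth arrest, by 0.30 (limma adjusted p = 0.0467). Gadd45b passed in only 6 of 20 alternatives and Tet2 in 10.

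Plekhb1, which encodes a membrane protein with a pleckstrin homology domain, was higher with BMS961 by 0.41 (limma adjusted p = 0.0132), with its widest gap, 0.74, at 48 h. Dock6 was higher by 0.22 (limma adjusted p = 0.00892) and was the gene in which neither agent passed against EtOH, with 0.09 for BMS961 and -0.13 for BMS641. Its 15 probe sets differed by 0.04 to 0.22, the brightest giving the highest value, and with the mean of the probe sets the call was lost. The rest were picked out after their values were seen. Alpl, alkaline phosphatase, differed by 0.18 (limma adjusted p = 0.00161), Cntfr, the ciliary neurotrophic factor receptor, by 0.17 (limma adjusted p = 0.0362), Mcl1, an anti-apoptotic BCL2 relative, by 0.16 (limma adjusted p = 0.0467) and Atp11b, a phospholipid flippase, by 0.30 (limma adjusted p = 0.0157). Cntfr and Mcl1 each lost their call in 12 of 20 alternatives, Cntfr without each of the 5 times in turn and Mcl1 without 6, 24, 48 or 72 h.

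All 17 genes had a BMS961 mean above the EtOH mean, and in 14 of them the BMS641 mean lay between those of EtOH and BMS961. The exceptions were Bhlhe40, Bhlhe41 and Dock6, whose BMS641 means differed from EtOH by -0.17, -0.08 and -0.13 without passing. Of these 14, BMS641 did not pass against EtOH in 6 (Cyp26a1, Plekhb1, Gadd45b, Dusp4, Tet2 and n-R5s136). That BMS961 stood farther above EtOH follows from choosing genes higher with BMS961 than with BMS641. Against EtOH, 331 genes passed with BMS961 (224 higher, 1.12% of those tested, and 107 lower, 0.537%) and 136 with BMS641 (106 higher, 0.532%, and 30 lower, 0.15%). These comparisons share their EtOH arrays and the time terms of the fit, and the EtOH arrays carry no time, so the counts are given side by side only.

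Of the 2 genes lower with BMS961 in the mean of 5 times, H1f2 moved apart from the rest. H1f2 encodes a linker histone. Its log2 levels were 8.53, 8.40, 8.39, 8.39 and 8.31 with BMS641 and 8.07, 7.79, 7.76, 7.82 and 7.75 with BMS961, beside 8.52, 8.43, 8.43 and 8.11 with EtOH. The 5 BMS961 arrays lay below all others, including ATRA (8.23 to 8.79) and BMS753 (8.18 to 8.51), and the difference was already -0.46 at 2 h. The mean difference was -0.56 ± 0.059 (SE, n = 5 times; 95% interval -0.69 to -0.44; limma adjusted p = 0.000119). Against EtOH, H1f2 stood at -0.53 with BMS961 (limma adjusted p = 3.28e-05). With BMS641 it stood at 0.03 and did not pass (limma adjusted p = 0.893).

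Nr0b1, an orphan nuclear receptor (DAX1) of the pluripotency list, was above EtOH with both agents and less so with BMS961. Its log2 levels were 11.09, 11.62, 11.75, 11.58 and 11.57 with BMS641, 10.97, 11.33, 11.52, 11.33 and 11.17 with BMS961, and 10.66 to 10.81 with EtOH. Every array of both agents lay above the EtOH range, and BMS961 was the lower at each time. The mean difference was -0.26 ± 0.035 (SE, n = 5 times; limma adjusted p = 0.00161), from rises over EtOH of 0.52 with BMS961 and 0.78 with BMS641. Under ATRA the level spanned 6.05 to 12.78 over the 5 times.

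The pluripotency list otherwise showed little separation. Of 32 measured genes, Nr0b1 was called in the mean of 5 times, and late Dppa2, a chromatin factor of early embryos, was higher with BMS961 by 0.32 (limma adjusted p = 0.0134). This late call was lost in 7 of 20 alternatives, including the mean of probe sets and leaving out 48 or 72 h. The dimmer probe set of Dppa2 differed by 0.09 in the mean of 5 times. The mean difference of Pou5f1 was 0.00 (95% interval -0.05 to 0.06), that of Sox2 0.07 (95% interval 0.02 to 0.12; limma adjusted p = 0.501) and that of Nanog 0.02 (95% interval -0.05 to 0.10). Nanog was above EtOH by 0.30 with BMS961 and by 0.27 with BMS641, and the methyltransferase gene Dnmt3a by 0.32 and 0.28. The list's median was 0.0208, beside 0.000696 over all genes. Of its 32 mean differences, 26 were above 0 (81.2%, against 50.6% of all genes). That share was close to the 82.1% of the genes raised at least 4-fold late by ATRA and BMS753.

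No marker of a differentiated cell type passed between the agents. This held in the mean of 5 times and late for 30 neural progenitor, 35 neuron, 26 endoderm, 12 neural crest, 9 glia, 8 trophoblast, 18 Nodal pathway and mesendoderm, and 24 mesoderm, muscle and fibroblast genes. The same held for 30 cell cycle, 15 cholesterol synthesis and 20 glycolysis and hypoxia genes. The median mean differences of these 11 lists lay between -0.0495 and 0.0293. Of 28 immediate early and stress genes, Gadd45b was called in both comparisons and Trp53inp1, a target of p53, late, at 0.24 (limma adjusted p = 0.0491; lost in 12 of 20 alternatives, among them the fits without 6, 24, 48 or 72 h). The list's median was -0.0123.

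**Figure D4:**
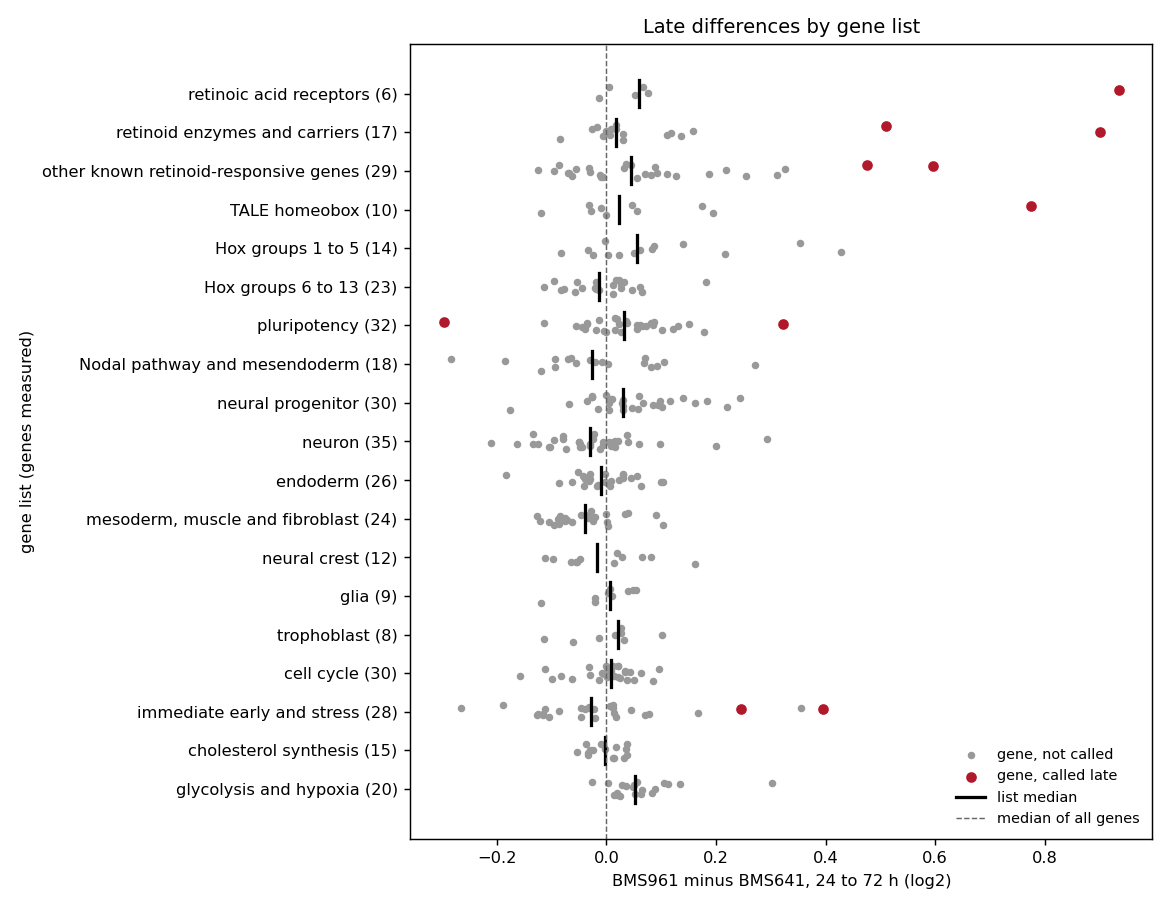
Each point is 1 gene at its late difference, BMS961 minus BMS641 on the log2 scale (horizontal axis), in 19 gene lists (vertical axis, with the number measured). Red points passed late, black bars are list medians and the dashed line is the median of all genes; the red points are 9 genes above 0, Rarb, Cyp26a1, Dhrs3, Gfra1, Bhlhe40, Meis2, Dppa2, Gadd45b and Trp53inp1, and 1 below, Nr0b1.

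Late, over 24, 48 and 72 h, 30 genes passed, 22 higher with BMS961 (0.11%) and 8 lower (0.0401%), and 15 of them were also called in the mean of 5 times. The late times are part of those 5, so shared calls are favoured by construction and are no separate support. Rarb differed by 0.93, Cyp26a1 by 0.90, Gfra1 by 0.60, Plekhb1 by 0.52 and Dhrs3 by 0.51. Among genes called late alone, Epha4, an ephrin receptor, went from 8.41, 8.43 and 8.67 with BMS641 to 8.52, 8.92 and 9.33 with BMS961 at 24, 48 and 72 h, a difference of 0.42 (limma adjusted p = 0.0272). Mecom, a zinc finger transcription factor of the EVI1 locus, differed by 0.33 (limma adjusted p = 0.0497), while its dimmer probe set differed by -0.01 in the mean of 5 times. The lost calls of Mecom include the fits without each of the 5 times in turn. Epha4 and the late genes that the comparison left over, Shisa6, Kcng3, Fam171b and Gca, with 0.23 to 0.37, were named after their values were seen.

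Of the genes that were lower late with BMS961, Mme had the largest difference after H1f2. Mme, the membrane metalloprotease neprilysin, gave 8.37, 8.32 and 8.03 with BMS641 and 8.12, 7.93 and 7.59 with BMS961 at 24, 48 and 72 h, beside 8.22 to 8.40 with EtOH. All 3 late BMS961 arrays were below the EtOH range, and the late difference was -0.36 ± 0.057 (SE, n = 3 times; limma adjusted p = 0.00806). Pcolce, which enhances collagen maturation, differed by -0.35 (limma adjusted p = 0.00571), Sgk3, a kinase, by -0.26 (limma adjusted p = 0.0491) and Actn3, an actin crosslinker, by -0.25 (limma adjusted p = 0.0272). The tight junction gene Cldn6, with -0.20 (limma adjusted p = 0.0428), and Tmem243, with -0.23 (limma adjusted p = 0.0272), complete the 8 with H1f2 and Nr0b1 and were named after their values were seen. Sgk3 lost its call in 14 of 20 alternatives and Cldn6 in 12, both without each of the 5 times in turn. The count of 30 was 5 without the 48 h arrays, 8 without 72 h, 48 without EtOH replicate 2 and 0 with all 24 arrays in 1 fit.

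Early, over 2 and 6 h, 2 genes passed, 0.01% of those tested. Rarb was higher with BMS961 by 0.85 ± 0.085 (SE, n = 2 times; limma adjusted p = 0.000193). Rpl10l, a retrogene of a ribosomal protein, gave 6.32 and 6.54 with BMS641 and 5.78 and 5.84 with BMS961, beside 6.29 to 6.37 with EtOH, a difference of -0.62 ± 0.09 (limma adjusted p = 0.0207). At 24 h both agents gave 6.27. The early count was 1 without the 2 h arrays, 0 without 6 h and 1 without EtOH replicate 3. Cyp26a1 differed early by 0.45 and H1f2 by -0.53, neither passing (limma adjusted p = 1 and 0.184).

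Whether the difference between the agents itself changed from early to late was tested directly, and 0 genes passed in limma, with 740 at an unadjusted p under 0.05 and a lowest adjusted p of 0.806. The change was 0.63 ± 0.18 for Meis2, 0.45 ± 0.15 for Cyp26a1 and 0.44 ± 0.091 for Gfra1 (SE). A late call without an early one, as for Meis2 and Gfra1, is thus not shown to be a difference between phases. Without the 6 h arrays the count was 4 and without 24 h it was 1, Meis2.

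At single times each comparison is 1 array against 1 array, and its p takes the spread of the 4 EtOH arrays, so it does not measure variation within either agent at that time and the values serve as a description. Differences of at least 2-fold with an adjusted p under 0.05 on that spread were those of Rarb at 6 h (1.03; limma adjusted p = 0.0122) and 48 h (1.01; limma adjusted p = 0.00745), and Meis2 at 48 h (1.06; limma adjusted p = 0.00745) and 72 h (1.03; limma adjusted p = 0.00706). These were 0.00502%, 0.01% and 0.00502% of genes at 6, 48 and 72 h, and 0 genes met both at 2 h (859 at an unadjusted p under 0.05 in limma) or 24 h (543). Cyp26a1 differed by 1.05 at 48 h (limma adjusted p = 0.197).

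**Figure D5:**
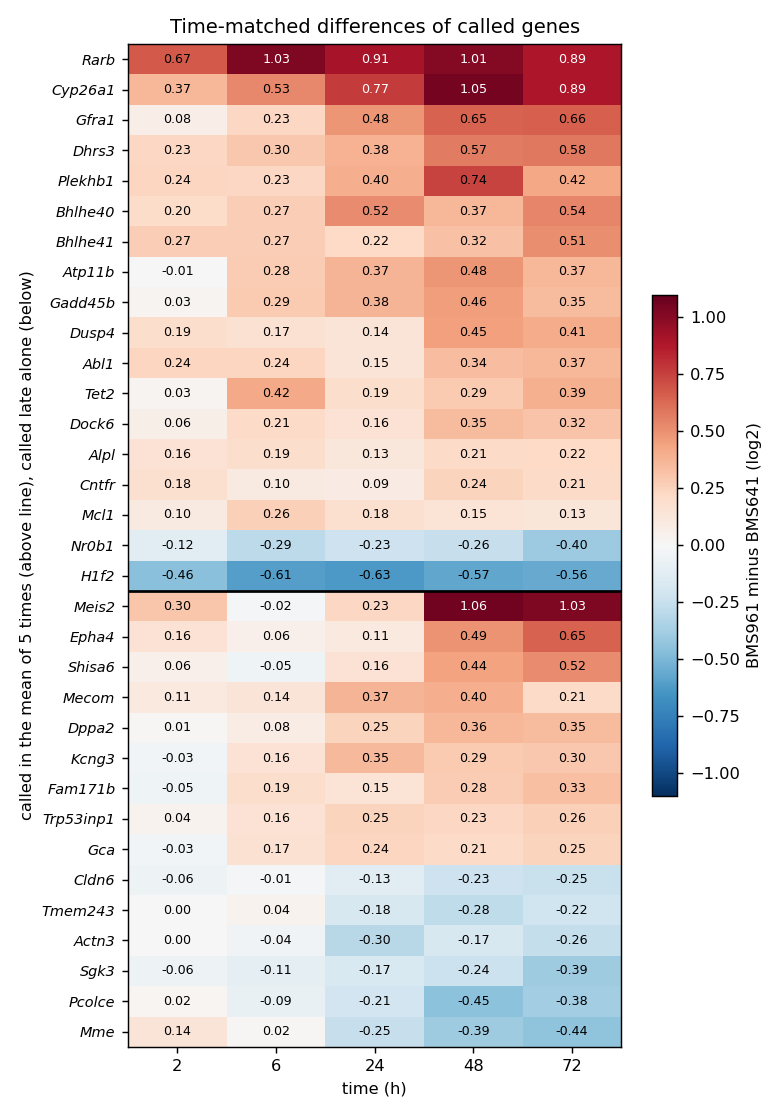
Time-matched differences, BMS961 minus BMS641 on the log2 scale, for the named genes called in the mean of 5 times (above the line) and those called late alone (below it), with time in h along the horizontal axis. Rarb stands at 0.67 at 2 h and near 1 from 6 h on, whereas Cyp26a1 goes from 0.37 at 2 h to 1.05 at 48 h and Meis2 exceeds 1 at 48 and 72 h only.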

How the data were processed

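The authors deposited log2 intensities per probe set, made with Affymetrix Expression Console 1.1 per the submitters' processing notes. Background correction, summarization and normalization are not given in the sources used here. The log2 scale was judged from the range, 2.859 to 14.3. Of 35556 probe sets, 21789 had 1 gene symbol, 1621 several and 12146 none here. The brightest probe set by its mean over all 24 arrays was kept for the 999 genes with several, leaving 19938 genes and no filter on dim signal.

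The test was limma 3.58.1 under R 4.3.3 (lmFit, eBayes with trend=TRUE; two-sided; Benjamini-Hochberg adjusted p under 0.05 over all genes) on 14 arrays: 5 BMS961, 5 BMS641 and 4 EtOH. Terms were 5 time means, the agent and an EtOH mean (7 residual degrees of freedom), or the agent in each phase (6). Single times used a mean per array (3). Intervals are 95% intervals of the moderated fit. Scripts were tested on simulated data.

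The named genes were the 12 largest called differences each way in the mean of 5 times with a shared sign at every time, the 6 largest each way late, early and in the late minus early change, filled with genes not called where fewer passed, and any list member. Predicted transcripts and small RNAs were passed over. The members, the 19 lists and the tests were chosen with earlier results of these data known. Lists have no test of their own. Alternatives were dim genes left out, quantile normalization, median centring, mean of probe sets, robust moderation, no variance trend, a 1.5-fold threshold, no time term, other sets of arrays, the EtOH spread alone, and each time or EtOH array left out. Sequences are from RefSeq (GRCm38.p6).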

Additional observations from a re-analysis of the deposited data

Results flagged for a closer look

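In Nkx6-2, a homeobox gene of the neural tube named by the size of its mean difference (-0.22, limma adjusted p = 0.294, not called), EtOH replicate 4 stood far from the other EtOH arrays. It gave 6.93 on the log2 scale and the others 6.77 to 6.79, so the gap was 0.867 of the range of the 4 arrays. It was 1 of 56 named genes examined, where chance gives about 1 in 20 groups.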

How the results depend on the processing

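No value of a named gene changed sign where it was called. With membership at 2-fold instead of 4-fold, the late median of the raised list was 0.0609 instead of 0.122. That of the lowered list was -0.0251 instead of -0.0665. The medians of the 19 gene lists were not recomputed under the alternatives. Rarb passed under all 20 alternatives in the mean of 5 times, with 0.87 to 0.96. Of the 19 genes, 8 lost their call under 4 or fewer alternatives and 4 under more than 10. The count of 19 in the mean of 5 times became 6 with no variance trend, 2 with an added 1.5-fold threshold, 4 with no time term, 29 with only the 10 arrays of the agents and 1 with all 24 arrays. Leaving out 1 time gave 9 to 53 and leaving out 1 EtOH array 13 to 29. The late count of 30 became 9 with no variance trend, 4 with an added 1.5-fold threshold, 6 with no time term, 0 with all 24 arrays and 17 with the spread taken from EtOH alone, 5 to 36 without 1 time and 24 to 48 without 1 EtOH array. The early count of 2 became 0 with all 24 arrays and 1 with the EtOH spread alone, 0 to 2 without 1 time and 1 to 3 without 1 EtOH array. The late minus early count of 0 became 0 to 4 without 1 time. At 72 h, 4 genes met the 1.5-fold size and 1 the 2-fold. With all 24 arrays the courses of ATRA and BMS753 enter the spread by construction. Otherwise the cause was not tested. The labels give no replicate number to the arrays of the agents. No paired analysis was possible because of this beyond the matching by time, which the time term carries. The number of arrays, 1 per agent and time, limits every value.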

Other observations

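H1f2 was the histone gene with the largest fall, and the family was looked at after its values were seen. Of 30 linker and core histone genes measured, 16 mean differences were above 0 and 14 below, with a median of 0.00301, and H1f2 alone was called. The next lowest were H3c15, a core histone gene, at -0.39 (limma adjusted p = 0.437) and H2bc8 at -0.20 (limma adjusted p = 0.448). H1f2, H3c15, H2bc8, H2ac8 and H3c4, 5 of the 30, were below 0 at all 5 times, against only 3.71% of all genes. Above 0 at all 5 times was 1 of the 30, against 4.39% of all genes. The 7 other linker histone genes measured ran from -0.07 for H1f7 to 0.05 for H1f10. EtOH replicate 4 was the lowest EtOH array in H1f2 (8.11), H3c15 (6.38) and H2bc8 (7.95). The other EtOH arrays gave 8.43 to 8.52, 6.46 to 7.20 and 8.22 to 8.35 in the same order. An array without either agent thus also stood low in these genes, and the cause was not tested. Histone genes are near copies of each other, so probe sets may share signal between them.

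Of 30 neural progenitor genes, 60%, 43.3%, 43.3%, 53.3% and 86.7% were higher with BMS961 at 2, 6, 24, 48 and 72 h. The log2 medians were 0.0199, -0.0162, -0.0163, 0.0164 and 0.1, so 72 h stood apart. Of 20 glycolysis and hypoxia genes, 10%, 80%, 70%, 85% and 90% were higher at the same times. Their medians were -0.0964, 0.0472, 0.0347, 0.0504 and 0.101, so here 2 h stood apart. Over all genes the shares were 53.4%, 49.2%, 46.3%, 52.1% and 52.2%. Each of these values is a difference between 2 arrays, and none of the genes in these lists passed.

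Of the 13767 probe sets with several symbols or none, 0 passed in the mean of 5 times, late, early or late minus early in limma.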
